A study of Rattus norvegicus with 12 samples.

Results

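The collagens, laminins and integrin subunits, with a small set of other extracellular matrix genes, were followed through tumor and normal rat liver cells kept with or without arginine. Members were probe sets annotated with a single gene symbol of a collagen chain (Col), an integrin (Itga, Itgb) or a laminin chain (Lama, Lamb, Lamc), or with 1 of 12 further names (Fn1, Sparc, Thbs1, Thbs2, Lox, Dcn, Bgn, Lum, Nid1, Nid2, Fbn1 and Spp1). This gave 63 genes of the 10411 that the array names by a single symbol, on 86 probe sets, and each gene was represented by its probe set with the highest mean signal. There were 29 collagen chains, 8 laminin chains, 13 integrin subunits, 3 proteins named for the integrin they bind, and 10 other matrix genes. Thbs1 and Thbs2 were not analysed here.

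The 4 groups held 3 cultures each, 12 in all, and each culture was measured on 1 RAE230A array. The tumor cells were GP7TB, a line of transformed cells obtained from clonal subpopulations of WB-F344 after 11 short exposures to N-methyl-N-nitro-N-nitrosoguanidine at 5 µg/ml. The normal cells were WB-F344 itself, a diploid epithelial line from rat liver. At about 80% confluence each line was moved for 18 h to Chee's Essential Medium with 5% fetal bovine serum, either without arginine (−Arg) or with L-arginine HCl at 0.168 g/l (+Arg). Each line is 1 cell population, so a difference between tumor and normal cells is a difference between these lines.

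The extracellular matrix is built from fibrillar collagens, which give tissue its tensile strength, and from basement membranes, in which sheets of collagen IV and of laminin trimers are joined by nidogens. Integrins, each an alpha subunit paired with a beta subunit, are the receptors through which cells hold on to these proteins and sense them. In liver, most fibrillar collagen is known to come from stellate cells and fibroblasts, while epithelial lines in culture can also lay down a matrix of their own.

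A signal is the brightness of a probe set after Microarray Suite 5.0, on a linear scale with every array brought to the same trimmed mean (500.1 to 500.2), and signals of different genes were not compared with each other. Median signals of the arrays were 173.4 to 226.4. Testing required that a probe set rank within the top 54% of signals on 3 or more arrays. The cutoff signal lay between 146 and 191 depending on the array, is called the threshold here, was set for this work and stands in for detection calls, which were not used. It left 43 of the 63 members and 9745 probe sets in all, of which 8 members passed on tumor arrays only, 5 on normal arrays only and 30 on both. Differences are given in log2 ± standard error from limma with 3 arrays per group, with p values adjusted across all 9745 (Benjamini-Hochberg) and called under 0.05. Where only some arrays of a group were under the threshold, a fold uses their signals as measured. The arrays came from 3 experiments per line, each a deficient and a sufficient culture. All tumor arrays were scanned on 1 day and the normal arrays on 3 others, and no chip lot held arrays of both lines. Cell line therefore cannot be told apart from scan day or chip lot. By the array records, tumor cells of experiment 2 had not been trypsinised and those of experiments 1 and 3 had. For normal cells the records did not state this.

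The labelled cell type was checked on marker lists. Of 11 measured genes listed for the labelled liver epithelial line, Krt7, Krt8, Vim and Gja1 were over the threshold on every array of both lines. From the same list, Krt18, Krt19, Cdh1, Epcam and Afp were under it on every array. The hepatocyte genes Apoa1, Tat, Cps1 and Fgb were under it on every array too, but Apob and Cyp2e1 were over it on every arginine-deficient tumor array, and Cyp2e1 was under it on every array of the other 3 groups. Stellate cell and fibroblast markers (11 measured) summed to 1104 to 1821 on the tumor arrays and to 5008 to 8721 on the normal arrays, with Acta2 and Hand2 over the threshold on every array of both lines and Pdgfra, Pdgfrb, Lrat, Thy1, Reln and Ngfr under it on every array. Tagln was under the threshold on every tumor array and over it on every normal array, and Des was over it on every normal array with arginine. Of 6 endothelial and 9 macrophage and leukocyte genes measured, Egfl7 and Cd14 were over the threshold on every array. Pecam1, Kdr, Vwf, Ptprc, Cd68, Cd74, Itgam and Fcgr2b were under it on every array. Lyve1 was over it on every tumor array and under it on every normal array. The part of these markers in the differences of matrix genes described next was not tested.

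The comparison of tumor with normal cells asked how the matrix genes differed between the transformed line and its parent. With arginine, 9 members were higher and 20 lower in tumor cells at adjusted p under 0.05. Among all tested probe sets 16.4% were higher and 18.1% lower. Without arginine 9 members were higher and 23 lower, beside 19.5% higher and 21.2% lower of all tested probe sets. The 2 comparisons use different arrays. Of the members, 6 were higher and 20 lower in both media, none was called in opposite directions, and 8 tested members were called in neither. The members that passed the filter on tumor arrays only were Col5a3, Col6a1, Col6a2, Col6a3, Col7a1, Col8a1, Lama3 and Spp1. All of them were called higher in at least 1 medium. Those that passed on normal arrays only were Col1a2, Col14a1, Itga1, Itga8 and Itgae, all called lower in at least 1 medium. Such members entered the test only through the line where they were high, so their calls lean on the filter. Leaving out the deficient normal culture of experiment 1 left 5 members higher and 20 lower without arginine. In that fit 1593 of all 9745 tested probe sets were higher and 1805 lower, against 1900 and 2064 in the main fit. With every probe set tested regardless of its signal, 10 members were higher and 20 lower of 63 with arginine (all probe sets: 9.83% and 11.1%), and 10 higher and 22 lower without it (12% and 13.2%). Signals of the tumor and normal arrays did not overlap for 32 of the 43 tested members with arginine and for 32 without it, beside 49.2% and 48.6% of all tested probe sets. Over the 43 tested members the median difference was -0.98 with arginine and -0.94 without it, against 0.00 and 0.01 over all tested probe sets. Over all 63 members, including those not tested for low signal, it was -0.50 with arginine and -0.07 without it. The medians over all probe sets in that same unfiltered fit were -0.00 and 0.04. RNA came from whole cultures, so fewer cells expressing a gene and less RNA per cell cannot be told apart.

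**Figure D1:**
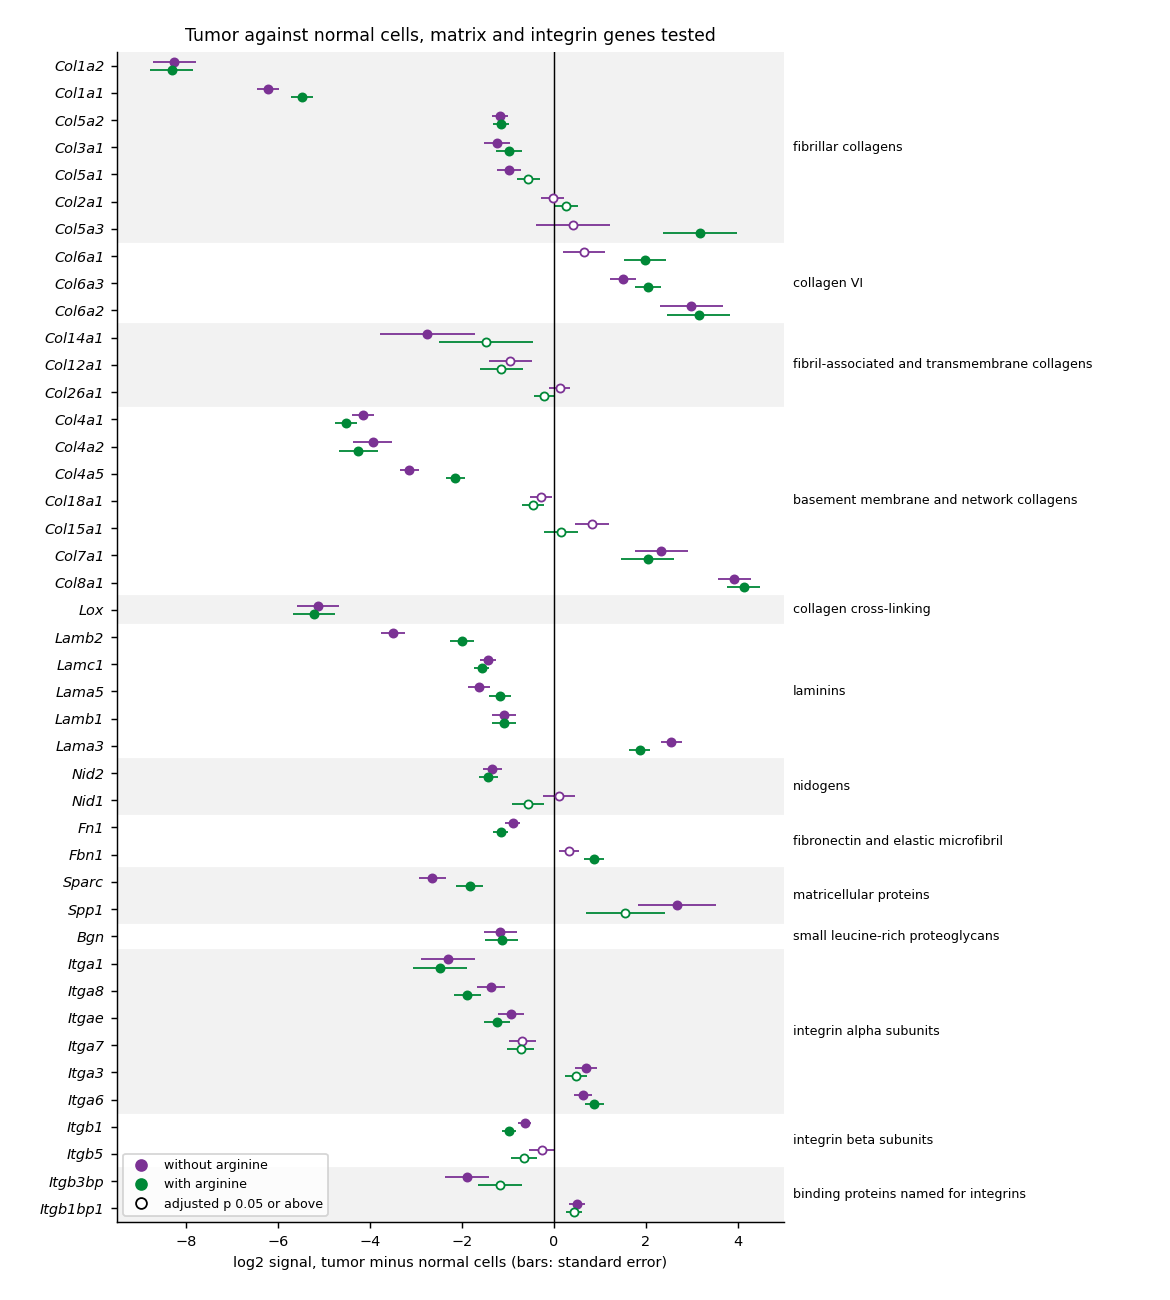
Difference in log2 signal between tumor and normal cells (horizontal axis, bars of 1 standard error) for the 43 tested members, grouped by role, without arginine (purple) and with arginine (green); open circles did not reach an adjusted p under 0.05, and signals under the threshold enter as measured. Col1a2, Col1a1, Lox, Col4a1 and Col4a2 lie farthest to the left in both media, and Col8a1 lies farthest to the right.

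The widest gap was in type I collagen, the main fibril-forming collagen of connective tissue. For Col1a1, which encodes its alpha 1 chain, signals were 592, 519 and 340.3 in tumor cells with arginine, against 28460.1, 18813 and 17182 in normal cells with arginine. Without arginine they were 299.9, 248 and 212 in tumor cells and 21722, 19661 and 15113 in normal cells. The highest tumor array thus lay far below the lowest normal array, and Col1a1 was 44.5-fold lower in tumor cells with arginine (-5.47 ± 0.25, adjusted p = 2.98e-09) and 74.3-fold lower without it (-6.21 ± 0.25, adjusted p = 7.42e-10). Col1a2, the partner chain, had signals of 101, 69 and 50 in tumor cells with arginine, against 24991, 21773 and 20644 in normal cells with arginine. Without arginine the signals were 24.2, 124 and 97.6 in tumor cells and 25042, 22175 and 15165 in normal cells. Every tumor array was under the threshold, so only a bound on the ratio can be given. With the tumor arrays set at their thresholds Col1a2 was at least 134-fold lower in tumor cells with arginine (measured means 73.4 and 22469, adjusted p = 2.92e-08) and at least 129-fold lower without it (means 82 and 20794). A second probe set of each gene gave -4.82 and -4.48 for Col1a1 and -7.07 and -7.82 for Col1a2, with and without arginine.

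Lox encodes lysyl oxidase, the secreted enzyme that cross-links collagen and elastin. Its signals were 392, 154 and 127 in tumor cells with arginine, against 9140.2, 7279 and 5962 in normal cells with arginine. Without arginine they were 349, 182 and 83.8 in tumor cells, against 6735, 6446 and 5286 in normal cells. Lox was 37.3-fold lower in tumor cells with arginine (-5.22 ± 0.46, adjusted p = 1.87e-06) and 35.1-fold lower without it (-5.13 ± 0.46), and its second probe set gave -5.47 and -5.62. The tumor signals 154, 127 and 83.8 of the brighter probe set were under the threshold and enter its folds as measured. The tumor arrays of experiment 1 were the highest of their line in both media.

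**Figure D2:**
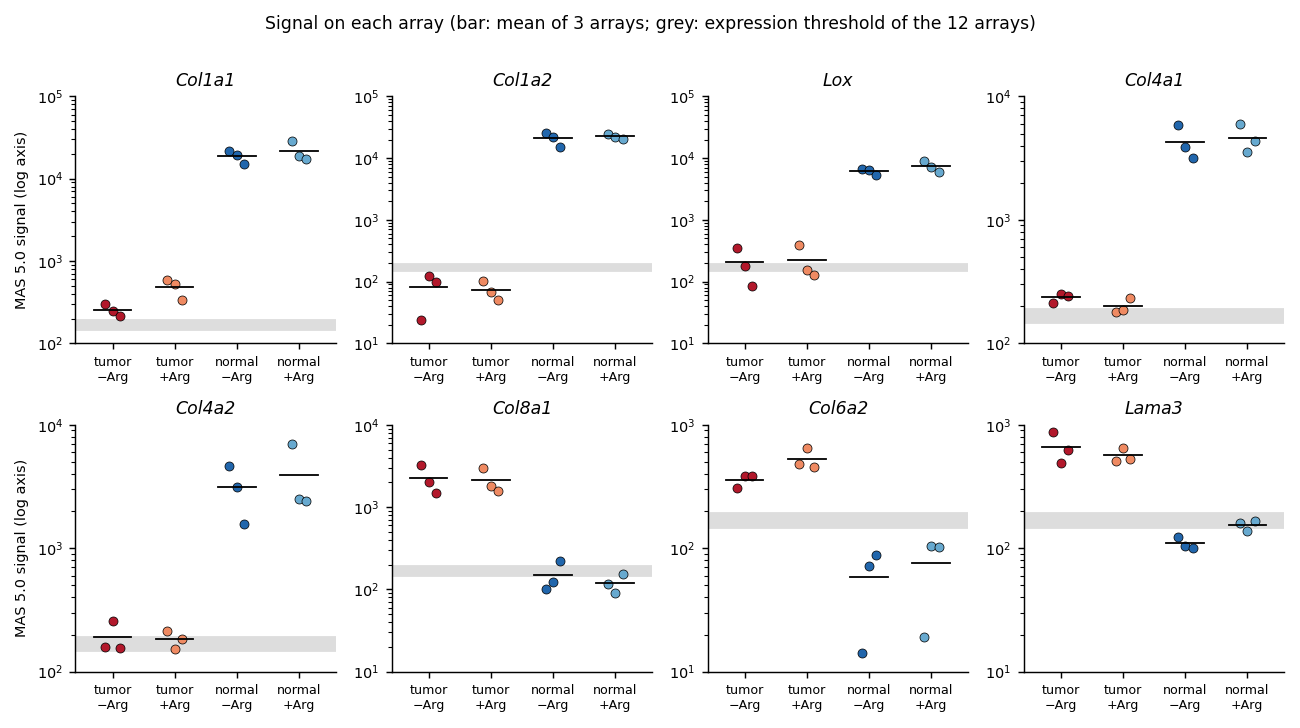
Signal on each of the 12 arrays (points, log axis) with the mean of 3 arrays (bar) for 8 members, in tumor cells without and with arginine and normal cells without and with arginine; the grey band is the range of expression thresholds over the arrays. For Col1a1, Col1a2, Lox, Col4a1 and Col4a2 every tumor array lies below every normal array, and for Col8a1, Col6a2 and Lama3 every tumor array lies above every normal array.

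Other fibrillar collagens differed in both directions. Col3a1, which encodes type III collagen found beside type I, was 1.97-fold lower in tumor cells with arginine (5908, 8088 and 7276 against 19398, 10499 and 13009 in normal cells, adjusted p = 0.0172) and 2.35-fold lower without it (adjusted p = 0.00385). Its call with arginine was lost without the sufficient tumor culture of experiment 1 (adjusted p = 0.0605) and without the sufficient normal culture of experiment 1 (0.0854). Type V collagen starts and limits the growth of type I fibrils. Its chain Col5a2 was 2.23-fold lower in tumor cells with arginine and 2.25-fold lower without it (adjusted p = 0.000272 and 0.000203). Col5a1 was lower in tumor cells without arginine (-0.97 ± 0.26, adjusted p = 0.00858) and had a difference of -0.55 with it (adjusted p = 0.115), while the mean of its probe sets did not pass without arginine (-0.44, adjusted p = 0.14) and a second Col5a1 probe set showed 0.10 and 0.18. The third chain, Col5a3, was higher in tumor cells with arginine. Its signals there were 246, 151 and 346, against 41.2, 17.5 and 23.9 in normal cells with arginine, all of them under the threshold, which gave a bound of at least 1.29-fold (means 248 and 27.5, adjusted p = 0.00771). The call was lost when signals under the threshold were raised to it (0.40, adjusted p = 0.171). Without arginine Col5a3 had signals of 31.9, 32.2 and 222 in tumor cells and 121, 25.5 and 31 in normal cells, and these overlapped. Of the 10 fibrillar collagens measured, 7 were tested, and 1 was higher and 4 lower in tumor cells with arginine, against 0 higher and 5 lower without it. Of all tested probe sets 16.4% were higher and 18.1% lower with arginine, and 19.5% and 21.2% without it.

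Collagen IV forms the network of the basement membrane, and Col4a1 and Col4a2 encode the chains of its commonest trimer. Col4a1 had signals of 179.9, 184 and 232 in tumor cells with arginine, against 6029, 3521 and 4374 in normal cells with arginine. Without arginine the values were 212, 252 and 243 in tumor cells, against 5809.9, 3909.5 and 3193 in normal cells. The difference was 22.9-fold with arginine (-4.52 ± 0.24, adjusted p = 1.74e-08) and 17.7-fold without it (-4.15 ± 0.24, adjusted p = 3.16e-08), lower in tumor cells in both. Col4a2 had 215, 152 and 184 in tumor cells with arginine, against 6922, 2484 and 2413 in normal cells with arginine, and it was 19-fold lower in tumor cells (-4.25 ± 0.42, adjusted p = 5.87e-06). Without arginine its signals were 157, 259 and 154 in tumor cells and 4664, 3139.7 and 1559.5 in normal cells, 15.4-fold lower in tumor cells. In normal cells, both chains were brightest in the cultures of experiment 1. Col4a5, a chain of the minor collagen IV trimers, was also lower in tumor cells, 4.41-fold with arginine (444, 510.2 and 339 against 2291, 1639.5 and 1754 in normal cells) and 8.85-fold without it (249.8, 289 and 319.6 against 3027, 2085 and 2535), with adjusted p = 4.94e-06 and 1.22e-07.

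The bases just before the annotated start of 4 of the members that differed most are printed because Col4a1 and Col4a2 lie head to head on the chromosome and so share upstream sequence. The 250 bases before each start were taken from RefSeq (build GRCr8) and are given 5′ to 3′ on the strand of the gene. Capitals mark matches, on either strand, to CCAAT (the CCAAT box), TATAAA (the TATA box) and GGGCGG (the GC box). Windows were found for 47 of the 63 members, and Col1a1 and Lox had no entry.
Col1a2 (chr4:33518307-33518556, plus strand): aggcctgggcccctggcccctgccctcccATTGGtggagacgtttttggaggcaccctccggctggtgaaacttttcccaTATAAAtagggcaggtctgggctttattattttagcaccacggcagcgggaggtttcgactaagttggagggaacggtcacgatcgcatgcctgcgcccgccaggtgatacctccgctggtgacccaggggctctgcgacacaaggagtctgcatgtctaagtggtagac
Col4a1 (chr16:84885347-84885596, plus strand): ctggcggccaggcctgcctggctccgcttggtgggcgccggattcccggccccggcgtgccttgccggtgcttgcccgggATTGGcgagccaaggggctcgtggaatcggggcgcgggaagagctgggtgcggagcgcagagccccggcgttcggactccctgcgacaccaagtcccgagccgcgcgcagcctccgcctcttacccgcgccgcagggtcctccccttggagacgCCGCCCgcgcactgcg
Col4a2 (chr16:84885521-84885770, minus strand): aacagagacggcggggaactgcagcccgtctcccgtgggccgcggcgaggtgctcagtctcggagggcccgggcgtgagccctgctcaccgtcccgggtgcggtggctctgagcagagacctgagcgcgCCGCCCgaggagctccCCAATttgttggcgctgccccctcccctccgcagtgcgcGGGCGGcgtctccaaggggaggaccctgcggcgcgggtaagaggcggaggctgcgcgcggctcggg
Col8a1 (chr11:56246532-56246781, plus strand): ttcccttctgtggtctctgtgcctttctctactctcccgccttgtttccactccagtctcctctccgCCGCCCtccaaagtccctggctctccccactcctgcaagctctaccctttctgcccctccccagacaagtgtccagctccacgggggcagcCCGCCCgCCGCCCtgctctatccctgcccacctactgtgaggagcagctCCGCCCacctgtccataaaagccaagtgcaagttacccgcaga
The start sites of Col4a1 and Col4a2 were 76 bases apart, and these 76 bases stood in both windows, once on each strand. A CCAAT box was present in the windows of Col1a2, Col4a1 and Col4a2 but not in that of Col8a1. It was found in 12 of the 47 member windows, against 34.0% of all 33469 windows of this length. TATAAA was present once for Col1a2 and in 5 of the 47 windows (12.9% of all), and the GC box was present once for Col4a1, at 2 places for Col4a2, at 4 for Col8a1 and in 20 of the 47 windows (30.5% of all). The AP-1 site TGANTCA, searched on both strands, was in none of the printed windows and in 2 of the 47 (6.34% of all). A match describes the letters and says nothing of binding.

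A different set of collagens was higher in tumor cells, and all of those called had passed the filter on tumor arrays only. Col8a1 encodes a chain of type VIII collagen, a short network-forming collagen. It had signals of 2998, 1789 and 1568 in tumor cells with arginine, against 115, 89.4 and 154 in normal cells with arginine, where each was under the threshold. Col8a1 was at least 11.2-fold higher in tumor cells with arginine (means 2118 and 119.6, adjusted p = 1.52e-06). Without arginine the signals were 3277, 2000.4 and 1482 in tumor cells and 102, 123 and 221 in normal cells, a 15.2-fold difference (3.92 ± 0.35, adjusted p = 2.16e-06). Of these normal signals, 102 and 123 were under the threshold and enter the fold as measured. In both media the tumor arrays were all brighter than the normal ones.

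All 3 measured chains of collagen VI, which forms beaded filaments around cells, were higher in tumor cells with arginine. Of all tested probe sets 16.4% were higher there. Col6a2 had 477, 654 and 456 in tumor cells, against 19.1, 105 and 102 in normal cells with arginine, all of the normal values being under the threshold. The bound was at least 2.87-fold with arginine (means 529 and 75.5, adjusted p = 0.00289) and at least 2.1-fold without it (means 357 and 58.2, adjusted p = 0.00343). For Col6a3 the bounds were at least 2.48-fold and at least 1.61-fold higher (means 464 and 111 with arginine, 273 and 97.1 without). Col6a1 had 445, 500.0 and 436 in tumor cells with arginine, against 111, 78.2 and 182 in normal cells, and was higher (adjusted p = 0.00439). As 2 of those 3 normal signals were under the threshold, the difference depended on how they were treated (1.98 as measured and 1.34 with low signals raised to the threshold, where it also passed, adjusted p = 0.000819). Without arginine Col6a1 had 115, 325 and 258 in tumor cells and 98.2, 92.1 and 272 in normal cells. Those values overlapped, and the difference of 0.65 ± 0.46 did not pass the test (adjusted p = 0.273).

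Col7a1, the collagen of the anchoring fibrils below epithelia, had 446, 272 and 118 in tumor cells with arginine, against 55.1, 95.1 and 39.7 in normal cells, at least 1.34-fold higher (means 279 and 63.3, adjusted p = 0.0146). Without arginine it had 174, 168 and 86.1 in tumor cells and 14.6, 43.8 and 30.5 in normal cells (adjusted p = 0.0057). The call with arginine was lost without the sufficient tumor culture of experiment 1 (adjusted p = 0.0769), without that of experiment 2 (0.0542) or without the sufficient normal culture of experiment 3 (0.0583). Raising every signal under the threshold to it left differences of 0.56 with arginine and -0.06 without it, and neither passed the test then.

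Among the fibril-associated collagens, which sit on the surface of fibrils, Col14a1 was uneven between normal cultures. Without arginine its signals were 69, 83 and 30.8 in tumor cells, against 2448, 169 and 131 in normal cells. With arginine they were 112, 165 and 110.3 in tumor cells, against 1814, 129 and 187 in normal cells. The normal cultures of experiment 1 lay far above those of experiments 2 and 3. The call of lower Col14a1 in tumor cells without arginine (at least 2.4-fold, means 60.9 and 916, adjusted p = 0.0464) was lost without the deficient normal culture of experiment 1 (-1.41, adjusted p = 0.222) and when signals under the threshold were raised to it (-1.39, adjusted p = 0.251). It was also lost without any 1 of the 6 tumor cultures (adjusted p = 0.0538 to 0.146) or without the sufficient normal culture of experiment 3 (0.0521). Col12a1, its relative, showed -1.14 ± 0.47 and -0.95 ± 0.47 with and without arginine and passed in neither (adjusted p = 0.0761 and 0.123). Col15a1 and Col18a1, of the basement membrane zone, Col26a1 and the cartilage collagen Col2a1 were tested and passed in neither medium.

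Of the 5 laminin chains tested, 4 were lower and 1 was higher in tumor cells in both media. Of all tested probe sets 18.1% were lower and 16.4% higher with arginine, and 21.2% and 19.5% without it. Lamb2 encodes the beta 2 chain of laminins found in specialised basement membranes. It had 305, 335 and 168 in tumor cells with arginine, against 1223, 969 and 926 in normal cells with arginine, and was 4-fold lower (adjusted p = 5.90e-05). Without arginine it had 101, 76.9 and 117 in tumor cells, each under the threshold, against 1261, 1063 and 977 in normal cells, at least 6.95-fold lower (means 98.4 and 1100.2, adjusted p = 3.34e-07). Lamc1, the gamma chain of most laminins, was 2.98-fold lower with arginine (1771, 2431 and 2268 in tumor cells, against 6893, 5559 and 6715 in normal cells) and 2.7-fold lower without it (adjusted p = 1.24e-05 and 2.54e-05). Lama5 and Lamb1, an alpha and a beta chain of epithelial and vascular basement membranes, were 2.25-fold and 2.13-fold lower in tumor cells with arginine (adjusted p = 0.00194 and 0.00576) and 3.09-fold and 2.12-fold lower without it. Lama3 went the other way. Its product is the alpha 3 chain of the laminin that epithelial cells rest on. Signals of Lama3 were 512, 649 and 531 in tumor cells with arginine, against 161, 137 and 166 in normal cells, all under the threshold, at least 3.09-fold higher (means 564 and 155, adjusted p = 3.38e-05). Without arginine they were 869, 486 and 619 in tumor cells and 123, 105 and 99.7 in normal cells, at least 3.78-fold higher (means 658 and 109, adjusted p = 1.81e-06).

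The nidogens join the laminin and collagen IV networks. Nid2 was 2.68-fold lower in tumor cells with arginine (499, 412 and 507 against 1259, 1142 and 1400.5 in normal cells, adjusted p = 0.000173) and 2.53-fold lower without it (adjusted p = 0.00024). For Nid1 the probe sets disagreed. The brighter one showed -0.56 ± 0.35 with arginine and 0.10 ± 0.35 without it and passed in neither (adjusted p = 0.241 and 0.835). The dimmer Nid1 probe set had 4.8, 41.5 and 6.7 in tumor cells with arginine, against 220.0, 208 and 184 in normal cells with arginine, a difference of -4.21 ± 0.94 (adjusted p = 0.00364). For Col18a1 the second probe set also showed a wider difference (-2.01 and -2.21, with and without arginine) than the first (-0.46 and -0.29). Which probe set follows the transcript was not tested.

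Fibronectin (Fn1), the adhesive glycoprotein that cells assemble into fibrils, was 2.22-fold lower in tumor cells with arginine (6964, 8116 and 6811, against 18964, 15061 and 14801 in normal cells) and 1.86-fold lower without it (adjusted p = 0.000135 and 0.000804). Fibrillin 1 (Fbn1), the backbone of elastic microfibrils, was 1.82-fold higher in tumor cells with arginine (687, 567 and 525, against 378, 247 and 362 in normal cells, adjusted p = 0.00786). Without arginine Fbn1 had a difference of 0.32 ± 0.22 (adjusted p = 0.259). Sparc, a collagen-binding matricellular protein, was lower in tumor cells. Its signals were 4326, 5731 and 4175 in tumor cells with arginine, against 22325, 14611 and 14205 in normal cells with arginine, a 3.55-fold difference (adjusted p = 0.000384). Without arginine Sparc had 1616, 3423 and 3117 in tumor cells, against 22749.6, 15493 and 12011 in normal cells, 6.26-fold lower (adjusted p = 1.58e-05), and its second probe set gave -1.74 and -2.59, with and without arginine.

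Spp1, which encodes osteopontin, a secreted ligand of several integrins, was uneven among tumor cultures. Its signals were 1225, 205 and 206 in tumor cells without arginine, against 54.8, 20.7 and 177 in normal cells without arginine, and it was higher (adjusted p = 0.0226). The first 2 normal signals were under the threshold, and the call was lost when such signals were raised to it (1.12, adjusted p = 0.198). With arginine they were 1453, 239 and 279 in tumor cells, against 129, 121 and 245 in normal cells, and those groups overlapped (1.56 ± 0.85, adjusted p = 0.176). The call without arginine was lost without the deficient tumor culture of experiment 1 (1.81, adjusted p = 0.0947), and likewise without the deficient normal culture of experiment 1 (0.0563) or 2 (0.0971). Biglycan (Bgn), a small proteoglycan of collagenous matrix, was 2.2-fold lower in tumor cells with arginine (3079.7, 1618 and 2629.9, against 8189, 3115 and 5436 in normal cells, adjusted p = 0.0254) and 2.25-fold lower without it (adjusted p = 0.0187). With arginine the Bgn call was lost without the tumor culture of experiment 2 (adjusted p = 0.115) or the normal culture of experiment 1 (0.121) or 3 (0.0697), and without arginine it was lost without the tumor culture of experiment 3 (0.0939) or the normal culture of experiment 1 (0.0751). Decorin (Dcn) and lumican (Lum), its relatives, were under the threshold on every array.

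Integrin subunits differed in both directions. Itgb1, the beta subunit shared by most matrix receptors, had 3568, 4149 and 3948 in tumor cells with arginine, against 7588, 7258 and 8108 in normal cells, and was 1.97-fold lower in tumor cells (adjusted p = 0.000186) and 1.56-fold lower without arginine (adjusted p = 0.00345). Itga1, which pairs with it to form a collagen receptor, had 173, 137 and 86.7 in tumor cells with arginine, each under the threshold, against 1696, 424 and 498 in normal cells. The bound was at least 4.26-fold lower (means 132 and 873, adjusted p = 0.00484), and without arginine Itga1 was 4.92-fold lower (182, 108 and 84.4 in tumor cells, against 1402, 273 and 515 in normal cells, adjusted p = 0.00651). The tumor signals 108 and 84.4 were under the threshold and enter that fold as measured. In normal cells the Itga1 signals of experiment 1 were the highest in both media. Itga8, a receptor subunit for matrix proteins with an RGD sequence, was at least 1.6-fold lower with arginine (means 72.2 and 269.6, adjusted p = 0.000272) and at least 1.18-fold lower without it (means 73.1 and 190.2, adjusted p = 0.00241). Raising signals under the threshold to it ended the Itga8 call without arginine (adjusted p = 0.148) and the Itgae call there too (0.0669). Itgae, known as the subunit of a lymphocyte receptor for E-cadherin, was at least 1.63-fold and at least 1.43-fold lower in tumor cells with and without arginine (means 116 and 278 with it, 118 and 232 without). Without arginine the Itgae call was lost without the tumor culture of experiment 1 (adjusted p = 0.0501) or the normal culture of experiment 1 (0.0832).

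The laminin-binding subunits Itga6 and Itga3 were the integrin genes that were higher in tumor cells. Itga6 had 711, 753 and 683 in tumor cells with arginine, against 309, 442 and 429 in normal cells, and was 1.84-fold higher (adjusted p = 0.00376). Without arginine it had 682, 628 and 586 in tumor cells, against 345, 378 and 524 in normal cells, 1.54-fold higher (adjusted p = 0.022). A second Itga6 probe set showed 0.08 with arginine and 0.37 without it, and neither medium passed for the mean of both probe sets (adjusted p = 0.0951 and 0.0754). Itga3 was 1.62-fold higher without arginine (3216, 5319 and 5231 in tumor cells, against 2457, 3029.9 and 2825 in normal cells, adjusted p = 0.0299) and had 0.48 ± 0.24 with it (adjusted p = 0.134). The calls without arginine were lost for Itga6 without the tumor culture of experiment 1 or 2 or the normal culture of experiment 1 or 2 (adjusted p = 0.0567 to 0.0886). For Itga3 this was so without the tumor culture of experiment 2 or 3 or the normal culture of experiment 1 or 3 (adjusted p = 0.0604 to 0.121). Itga7, a further laminin-binding subunit, and Itgb5, part of a vitronectin receptor, passed in neither medium, whereas a second Itgb5 probe set was lower in tumor cells in both (-1.37 and -0.91).

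Of the proteins named for integrins, Itgb3bp, which binds the beta 3 tail and is also known as a kinetochore protein, had 485, 153 and 169 in tumor cells without arginine, against 806, 957 and 808 in normal cells, and was 3.68-fold lower (adjusted p = 0.00672). With arginine it had 766, 388 and 164 in tumor cells, against 857, 871 and 762 in normal cells (-1.18 ± 0.48, adjusted p = 0.0718), and the tumor cultures of experiment 1 were the highest of their line. With both tumor cultures of experiment 2 left out the call without arginine was lost (adjusted p = 0.0511). Itgb1bp1, which binds the tail of the beta 1 subunit, was 1.41-fold higher in tumor cells without arginine (1681, 1196 and 1355, against 901, 919.7 and 1162 in normal cells, adjusted p = 0.034). That call was lost without the tumor culture of experiment 1 (adjusted p = 0.118) or 3 (0.0669) and without the normal culture of experiment 1 (0.103) or 2 (0.0888).

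The arginine comparisons asked which matrix genes responded to 18 h without arginine. In tumor cells 1 member fell and none rose, where 0.944% of all tested probe sets fell and 0.965% rose. The member was Lamb2. Its signals were 101, 76.9 and 117 in arginine-deficient tumor cells, against 305, 335 and 168 in arginine-sufficient tumor cells. The groups did not overlap, every deficient array was under the threshold, and Lamb2 fell at least 1.64-fold (means 98.4 and 269, -1.41 ± 0.26, adjusted p = 0.0168). In normal cells the same gene had 1261, 1063 and 977 without arginine and 1223, 969 and 926 with it (0.08 ± 0.26, adjusted p = 0.956). The difference between the responses of the lines was -1.50 ± 0.37 and did not pass (adjusted p = 0.724). The call was lost without the deficient tumor culture of experiment 2 (0.0935), without the sufficient one of experiment 1 (0.0774) or 2 (0.0944), and when signals under the threshold were raised to it (0.155). A plain linear model without moderation of the variances gave 0.0751, and leaving out both tumor cultures of experiment 1 or of experiment 2 gave 0.122 and 0.314. At an unadjusted p under 0.05 there were 11 members, where 15.3% of all tested probe sets passed. With every probe set tested regardless of its signal, 1 member fell, beside 0.303% of all. Signals of deficient and sufficient cultures did not overlap for 15 of the 43 tested members in tumor cells and for 6 in normal cells, beside 23.2% and 13.9% of all tested probe sets.

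The cultures were paired by experiment, and when experiment entered the fit as a block, 9 members fell and none rose in arginine-deficient tumor cells. In that fit 6.18% of all tested probe sets fell and 4.79% rose. The pairing was weakest in tumor experiment 2. Deviations of its deficient culture from the group mean correlated at 0.04 with its partner and at 0.28 with the sufficient culture of experiment 3. In tumor experiments 1 and 2 the deficient and sufficient arrays came from different chip lots. Those of normal experiment 2 differed in chip lot and scan day. The part of chip lot and scan day in the ratios within experiments was not tested. The 9 were fibrillar collagen chains, other collagens, a laminin chain, Sparc and Fbn1. The brighter Col1a1 probe set fell, with log2 ratios of deficient over sufficient cultures of -0.98, -1.07 and -0.68 in the 3 experiments (mean -0.91, adjusted p = 0.00149 with the block and 0.0797 without it). Its signals were 299.9, 248 and 212 in deficient tumor cells, against 592, 519 and 340.3 in sufficient ones. In normal cells the Col1a1 ratios were -0.39, 0.06 and -0.19. The second Col1a1 probe set, over the threshold on all 12 arrays, did not pass in tumor cells (-0.23, adjusted p = 0.387 with the block). Its signals of 199, 277 and 220.4 in deficient tumor cells, against 305, 267 and 239.8 in sufficient ones, overlapped. For Lamb2 the tumor ratios were -1.59, -2.12 and -0.52 (adjusted p = 0.00428 with the block). Sparc had tumor ratios of -1.42, -0.74 and -0.42 (adjusted p = 0.00637 with the block, 0.166 without it). Col5a1 and Fbn1 had the narrowest spread among the 9. Tumor ratios of Col5a1 were -0.75, -0.67 and -0.50 (adjusted p = 0.0215 with the block), and those of Fbn1 were -0.56, -0.62 and -0.52 (0.0484). With the block the second probe sets gave -0.97 for Sparc (adjusted p = 0.00142), -0.41 for Col5a1 (0.143) and -0.43 for Fbn1 (0.167). Among these, only that of Sparc passed. Col1a2 was not among the 9, as its brighter probe set did not pass in tumor cells with the block (-0.08, adjusted p = 0.931). A second Col1a2 probe set did fall there (-0.75, adjusted p = 0.041). The other calls with the block were Col14a1 (-1.18, adjusted p = 0.0215), Col6a1 (-1.11, 0.0248), Col4a5 (-0.58, 0.0404) and Col5a3 (-1.94, 0.0465). Some of these rest on signals under the threshold, namely 5 of the 6 tumor signals of Col14a1, 3 of 6 of Col5a3 and 1 of 6 of Col6a1. With the block and low signals raised to the threshold, an alternative chosen after seeing the data, 10 members fell (7.16% of all tested probe sets). The calls of Col14a1 (-0.09, adjusted p = 0.781) and Col5a3 (-0.41, 0.0856) were lost, the other 7 kept theirs, and Col6a2, Col6a3 and Col7a1 were called as well. A second Col14a1 probe set was not tested. In Col4a5 the ratio of experiment 3 stood at -0.09. Over the 43 tested members the ratio was below 0 in all 3 tumor experiments for 19 and above 0 in all 3 for 6, beside 28.6% and 21.3% of all tested probe sets.

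**Figure D3:**
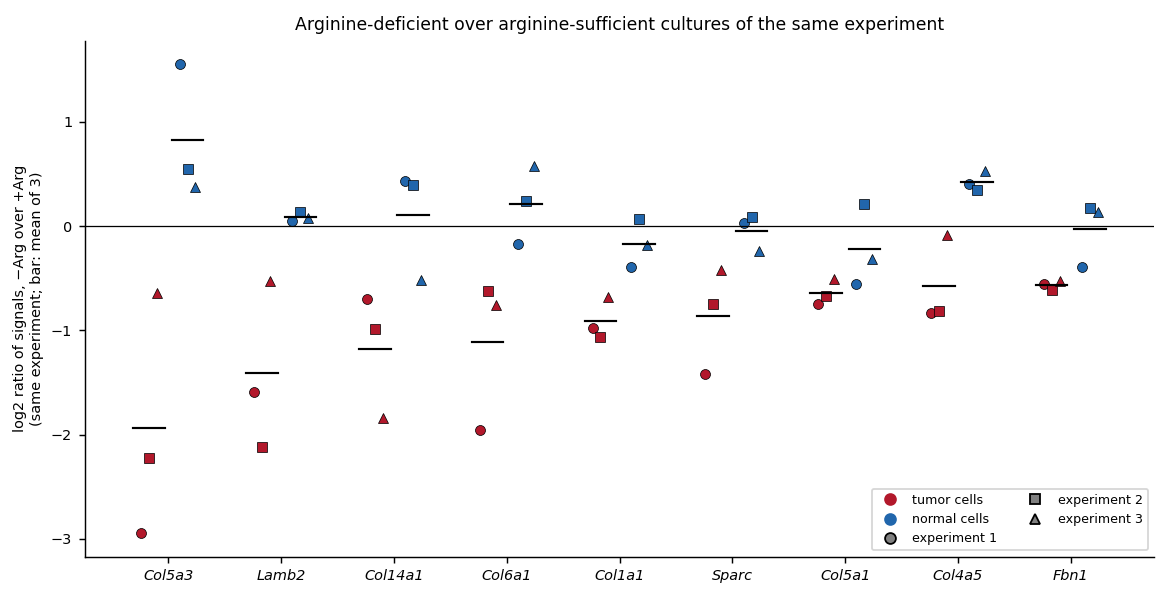
Log2 ratio of the signal without arginine over that with arginine within each experiment (vertical axis; circle, square and triangle for experiments 1, 2 and 3; bar, mean of 3) for the 9 members that fell in tumor cells when paired by experiment, in tumor (red) and normal (blue) cells. All 27 tumor points lie below 0, which the choice of these members favours, while the normal points lie on both sides of 0. Points of Col14a1, Col5a3, Col6a1 and Lamb2 include tumor signals under the threshold.

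In normal cells 0 members passed in limma, 5 had an unadjusted p under 0.05, and the plain linear model also called 0. Of all tested probe sets 0.164% passed, and 9.44% had an unadjusted p under 0.05. Without the filter 0 members passed as well (0.0567% of all). With the experiment as a block 1 member fell, Spp1 (log2 ratios -1.24, -2.54 and -0.47, adjusted p = 0.043, where 1.03% of all tested probe sets fell). Spp1 signals were 54.8, 20.7 and 177 in deficient normal cells, against 129, 121 and 245 in sufficient ones, and 4 of these 6 were under the threshold. With low signals raised the Spp1 call was lost (-0.23, adjusted p = 0.454), and 2 other members fell, Nid1 (adjusted p = 0.0336) and Itgb5 (0.0352), beside 1.69% of all tested probe sets. Their second probe sets did not pass with the block (0.59 for Nid1, adjusted p = 0.661, and -0.38 for Itgb5, 0.277). With the block and signals as measured, a second Col12a1 probe set did fall in normal cells (-1.41, adjusted p = 0.0346). The brighter Col12a1 probe set did not pass there (-0.70, adjusted p = 0.0706). The ratio was below 0 in all 3 normal experiments for 13 members and above 0 for 6 (23.2% and 17.1% of all tested probe sets).

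For the mean response over both lines, 0 members passed in limma, 10 had an unadjusted p under 0.05 and the plain linear model called 0, while 2.96% of all tested probe sets passed and 18.9% had an unadjusted p under 0.05. Without the filter 0 members passed (1.19% of all). With the block 1 member was higher and 11 were lower without arginine (6.1% and 8.58% of all tested probe sets). Lamb1 was the one that rose (0.53 ± 0.14, adjusted p = 0.0276), with ratios of 1.26, 0.06 and 0.29 in tumor cells and 0.55, 0.21 and 0.83 in normal cells, above 0 in all 6 pairs. Col1a1 (-0.54 ± 0.09, adjusted p = 0.00323) and Col12a1 (-0.60 ± 0.13, adjusted p = 0.0112) had the smallest adjusted p values among those that fell. Col12a1 had signals of 371, 502 and 494 in deficient tumor cells, against 729.9, 767 and 471 in sufficient tumor cells, and 1606, 491 and 844 in deficient normal cells, against 2969, 686 and 1392 in sufficient normal cells. The others that fell were Itgb5 (-0.63 ± 0.14, adjusted p = 0.0133), Sparc, Col5a1, Lamb2, Spp1, Nid2, Nid1, Col7a1 and Col3a1 (adjusted p = 0.0208 to 0.0481). For this mean the second probe sets of Col1a1 (-0.40, adjusted p = 0.0322), Col12a1 (-1.19, 0.0042) and Sparc (-0.55, 0.00403) also passed with the block. Those of Itgb5 (-0.15, 0.459), Nid1 (0.14, 0.861) and Col5a1 (-0.37, 0.0573) did not. With the block and low signals raised, 1 member was higher and 10 were lower (6.51% and 10.1% of all tested probe sets). The Spp1 and Lamb2 calls were lost (adjusted p = 0.113 and 0.109) and Col6a3 was called (0.0396). The test of a different response in tumor and normal cells called 0 of the 43 tested members and 0 of the 9745 probe sets in limma, with 4 members at an unadjusted p under 0.05, and 5.64% of all tested probe sets did. The plain linear model and the block fit also called 0 members.

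Some members set single experiments apart within a line. In normal cells, both cultures of experiment 1 were at least 2-fold above or below the other 4 for 3 members (0.41% of all tested probe sets), namely Col14a1, Itga1 and Col6a2. Col6a2 was on the low side, with 14.1, 71.7 and 88.7 in normal cells without arginine and 19.1, 105 and 102 in normal cells with arginine, so its gap lies among signals that were all under the threshold. By the looser rule, with both cultures above or both below the other 4 by any amount, experiment 1 of normal cells set 20 of the 43 tested members apart, beside 20.1% of all tested probe sets. They included Col1a1, Col1a2, Col3a1, Col4a1, Col4a2, Sparc and Bgn, all on the high side. By the same rule normal experiment 3 set 13 apart (18.7%) and normal experiment 2 set 7 apart (22.2%). In normal experiment 3, Col1a1, Col1a2, Col4a2 and Sparc were on the low side, while Col8a1, Col6a1 and Spp1 were on the high side. Tumor experiment 1 held 1 member at the 2-fold gap, Spp1 (0.41%), and 12 by the looser rule (28.7%). Tumor experiment 2, in which cells were not trypsinised, set 0 tested members apart by the looser rule (5.54%). Normal cultures of experiment 1 were scanned on the same day as 1 culture of experiment 2, and tumor cultures shared 1 scan day but came from 2 chip lots. The ratio of the Gapdh 3′ to 5′ probe sets, a sign of RNA quality, also differed between normal experiments. It was 1.38 without and 1.25 with arginine in experiment 1, 1.17 and 1.15 in experiment 2, and 1.01 and 0.998 in experiment 3, beside 1.09 to 1.23 on the tumor arrays. The part of RNA quality, scan day, chip lot and handling in these gaps was not tested.

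**Figure D4:**
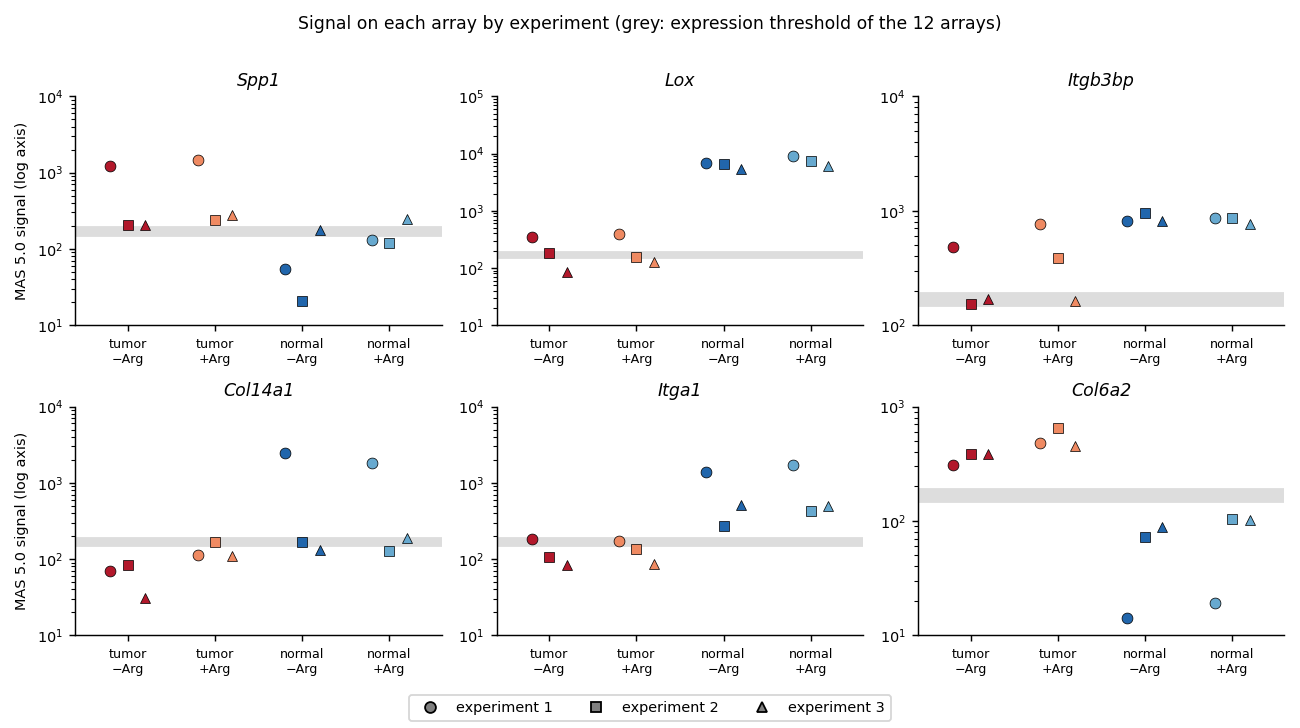
Signal on each array (log axis) for 6 members, with circles, squares and triangles for experiments 1, 2 and 3, in tumor cells without and with arginine and normal cells without and with arginine; the grey band is the range of expression thresholds. Experiment 1 lies highest among tumor cultures in Spp1, Lox and Itgb3bp, and among normal cultures it lies highest in Col14a1 and Itga1 and lowest in Col6a2, whose normal signals are all under the threshold.

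Genes that act on this matrix were taken from further lists. Of 18 tested genes for collagen modification and folding, 2 were higher and 4 lower in tumor cells with arginine, where 16.4% of all tested probe sets were higher and 18.1% lower. Serpinh1, the collagen chaperone, was lower (-1.13 in log2), as was Plod1, a lysyl hydroxylase (-1.94), and Loxl1, a relative of Lox, was higher (6.08). Differences of these listed genes are given as measured, with no bound where signals lay under the threshold. Of 16 tested matrix proteases and their inhibitors, 6 were higher and 4 lower, with Plau, the urokinase, and Mmp3, stromelysin 1, among the higher (4.48 and 3.71) and Plat, the tissue plasminogen activator, among the lower (-4.07). Among 22 tested genes of focal adhesions 4 were higher and 7 lower, and among 18 of TGF-beta signaling 2 were higher and 6 lower. Other proteoglycans and matrix receptors (21 tested) split into 6 higher and 8 lower. Over all measured genes of each list, tested or not, the median difference lay between -0.26 and 0.21. Over all probe sets regardless of signal it was -0.00. In tumor cells without arginine, Plod2, a lysyl hydroxylase, fell (-0.95), Plau fell (-1.53), and no other gene of the 5 lists passed.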

How the data were processed

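RNA of 12 cultures was hybridised to 1 Affymetrix RAE230A array each. The deposited values are intensities (signals) that the authors computed in Microarray Suite 5.0 from Affymetrix perfect match and mismatch probes, bringing each array to one trimmed mean. They are linear, not log-transformed and not centred. The depth of an array is not a count, so precision is limited by the 3 arrays per group. The array's run records served for scan day, chip lot, handling and pairing only.

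Signals under 1 were set to 1 and log2 was taken. Probe sets in the highest 54% of an array in at least 3 of 12 arrays were tested, without the 57 controls. Gene names are those of the array's annotation (12777 of 15923 probe sets with 1 symbol, 311 with several, 2778 with none). The gene IDs of all 63 members were found in RefSeq, and 0 symbols had changed. A group with every array under the threshold was given a bound, with each of its arrays set to the higher of its threshold and its signal.

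limma 3.58.1 in R 4.3.3 was fitted to all 12 arrays with 1 mean per group, empirical Bayes moderation with an intensity trend and Benjamini-Hochberg adjustment over 9745 probe sets (threshold 0.05), as a 2-factor design like that of the methods. The code was tested on simulated data. Deficient and sufficient cultures were paired into experiments by the methods' first table and the RNA names in the array records in the case of normal cells. For tumor cells the array records and the sequence of title numbers were used. Deviations of paired cultures correlated at 0.56, 0.04 and 0.42 in tumor and 0.43, 0.42 and 0.38 in normal cells. The deficient tumor culture of experiment 2 correlated more with the sufficient culture of experiment 3 (0.28) than with its own partner (0.04). Every other deficient culture correlated most with its own partner. The experiment as a block was an alternative, with 4 residual degrees of freedom. Other alternatives were other filters, treatments of low signals, normalizations, moderation, probe set averaging, scan day or chip lot as a block, and leaving out cultures. The methods describe the experiments as independent.

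Named members were those past the threshold in an arginine comparison, the 10 largest changes in each direction with arginine, the 2 brightest of each role and the 3 largest mean arginine effects in each direction. Others were named after their values were seen. The members and lists were chosen with earlier results of these data known. Upstream sequences are RefSeq's, from build GRCr8.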

Additional observations from a re-analysis of the deposited data

How the results depend on the processing

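Leaving out 1 culture at a time, with the pooled spread assumed for the smaller group, gave 0 to 2 members called for arginine in tumor cells (main value 1), 0 to 1 in normal cells (main 0), 0 to 2 for the mean response (main 0) and 0 to 0 for the difference of responses (main 0). The shares of all tested probe sets called were 0.257% to 2.05%, 0.0308% to 0.503%, 1.17% to 5.18% and 0% to 0.0103%, in that order. Tumor against normal cells gave 8 to 10 higher and 19 to 22 lower with arginine, and 5 to 9 higher and 20 to 24 lower without it. In either direction, 26.3% to 36.5% of all tested probe sets were called with arginine and 32.1% to 41.4% without it. The 5 higher came without the deficient normal culture of experiment 1, and with both normal cultures of experiment 1 left out there were also 5. For arginine in tumor cells, quantile normalization gave 2 calls, the experiment as replicate block 9, and 0 calls were made with low signals raised to the threshold, in the plain linear model, or with tumor experiment 1 or tumor experiment 2 left out. Of all tested probe sets these settings called 1.45%, 11%, 2.73%, 0.298%, 0.226% and 0.103%, in the same order. Scan day as a block gave 1 call in normal cells, the replicate block 1, and the replicate block gave 12 for the mean response. The shares of all tested probe sets there were 0.4%, 2.41% and 14.7%. The replicate block with low signals raised gave 10 calls in tumor cells, 2 in normal cells and 11 for the mean response. It called 12.6%, 3.64% and 16.7% of all tested probe sets, respectively. The block cannot be fitted to tumor against normal cells, since each experiment holds 1 line. The alternatives that leave out a whole experiment or join the block with raised signals were added after seeing the data.

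Of 1558 values of single members under an alternative (calls of any member, and the mean arginine effects named by rule), 1471 kept their direction and side of the threshold, 80 lost the call, 6 gained it and 1 reversed. The reversed value was Col7a1 in tumor against normal cells without arginine, -0.061 with low signals raised, against 2.34 as measured. The calls lost in the plain linear model were those of Bgn (both media), Col14a1, Itga3 and Spp1 (without arginine), Col3a1 (with arginine) and Lamb2 (arginine in tumor cells). The causes were not tested. Signals near the threshold and 3 cultures per group limit what can be called.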

Other observations

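The 20 members that were not tested included the cartilage collagens Col9a1, Col11a1 and Col11a2, the leukocyte integrin subunits Itgad and Itgam, and the proteoglycans Dcn and Lum, all of them under the expression threshold on all 12 arrays. When every probe set was tested regardless of its signal, Lama4, a laminin chain of vessel and muscle basement membranes, passed with arginine. Its signals were 87.1, 93.8 and 140.4 in tumor cells, against 62.1, 21.3 and 26.9 in normal cells, and both groups were under the threshold, so no fold is given. Col11a1 passed in the same way without arginine, with signals of 23.8, 24 and 5.6 in tumor cells, against 1.1, 2 and 1.3 in normal cells. Both were chosen after their values were seen. Col27a1, a fibrillar collagen of cartilage, had the widest mean response to arginine among the untested members (-1.16 in log2). Col27a1 had 117, 45.1 and 98.4 in deficient tumor cells, against 277, 129 and 74.1 in sufficient tumor cells, and 35.6, 22.4 and 89.7 in deficient normal cells, against 204, 67 and 126 in sufficient normal cells. This difference was not tested.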
